A study of Homo sapiens and Mus musculus with 10 samples.

Results

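A set of 10 secreted matrix genes was followed in A375 cells, an established human melanoma line, out of 63140 gene rows in the human table. The set comprised FN1, TNC, SPARC, SPP1, LAMB1, LAMC1, COL4A1, COL4A2, A2M and TIMP1. The genes were chosen by name, with the differences between the LL-37 and Ctrl libraries of these same data already known, so their differences between the 2 groups are given as descriptions and without a test. All 10 passed the filter on low values, which left 14399 genes. The 3 Ctrl libraries came from untreated cells and the 3 LL-37 libraries from cells given LL-37 at 80 µg/mL for 24 h. LL-37 is the antimicrobial peptide released from cathelicidin. Both groups are 1 cell line in culture, called biological triplicates by the submitters, and the labels state no genotype for either. The other 4 of the 10 libraries of the series, from mouse melanoma tissue, were not analysed here. In bulk RNA, fewer cells of a type and less RNA per cell cannot be told apart.

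The extracellular matrix is a meshwork of secreted proteins that anchors cells and presents signals to them. Laminins and type IV collagen form the sheet-like basement membrane, fibronectin forms fibrils that integrins bind, and matricellular proteins such as SPARC, tenascin-C and osteopontin tune adhesion without bearing load. Secreted inhibitors such as TIMP1 and alpha-2-macroglobulin restrain the proteases that remodel this material. In melanoma, SPARC, fibronectin, tenascin-C and osteopontin are known for their links to invasion.

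The 10 genes showed 2 patterns. FN1, A2M, SPARC, SPP1 and TIMP1 were lower in every LL-37 library than in every Ctrl library in TPM, although for SPARC, SPP1 and TIMP1 LL-37 replicate 3 was not below Ctrl after median-of-ratios scaling. For TNC, LAMB1, LAMC1, COL4A1 and COL4A2 the levels in LL-37 replicates 1 and 2 lay close to those of Ctrl, and LL-37 replicate 3 alone was far below. Levels are in TPM, a transcript abundance scaled by transcript length and library total, which keeps no sequencing depth, so no counting error can be given. Changes are differences in mean log2(TPM + 1), LL-37 minus Ctrl, a scale that understates the change of low genes.

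LL-37 replicate 3 differed from the other 5 libraries as a whole. Only 12991 genes reached 1 TPM in it, while 14304 to 14555 did in each of the others, and its correlations with them did not exceed 0.963, whereas each of the others reached 0.988 or more with its nearest library. It was the lowest library for 73.5% of tested genes. Over all tested genes the log2 change had a median of -0.20 when this library was kept and 0.00 when it was left out, so the members' log2 changes are given both ways. Of the 10 melanoma markers, SOX10 was 266 to 387 TPM in the 5 other libraries and 147 in LL-37 replicate 3. Over the 6 libraries S100A1 was 55.5 to 82.7 TPM, PRAME 57.5 to 77.7, S100B 27.1 to 38.2, CSPG4 56.1 to 241 and MITF 1.75 to 5.45. TYR was listed at 0 in all 6 libraries, MLANA and DCT stayed under 1 TPM, and PMEL was 0.120 to 1.25 TPM. The summed level of the 10 was 606 to 653 TPM in Ctrl and 357 to 791 TPM with LL-37. The labels describe extraction from cultured keratinocytes, but KRT1, TP63 and DSG3 were listed at 0 in all 6 libraries, and 5 of 8 keratinocyte markers were under 1 TPM throughout. Of the 8 fibroblast markers, 5, among them COL1A1, COL3A1 and DCN, were under 1 TPM in every library, and the summed level of the 8 was 7.16 to 7.89 TPM in Ctrl and 3.39 to 7.90 TPM with LL-37. The summed levels were 28.8 to 30.0 and 21.3 to 26.8 TPM for keratinocyte markers, 35.8 to 42.9 and 22.7 to 41.6 TPM for leukocyte markers, and 2.08 to 2.56 and 0.940 to 3.27 TPM for endothelial markers. The part of these markers in the results was not tested.

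FN1 encodes fibronectin, the fibril-forming glycoprotein that integrins bind through an arginine-glycine-aspartate site. It lies on the minus strand of chromosome 2 (215360440 to 215436172, GRCh38, GENCODE 29), and no other annotated gene overlaps it. In Ctrl replicates 1, 2 and 3 FN1 stood at 38.6, 36.2 and 43.7 TPM, and in LL-37 replicates 1, 2 and 3 at 20.5, 20.4 and 7.44 TPM. LL-37 replicates 1 and 2 held about the same amount, below every Ctrl library, and the third held less again. The group means were 39.5 ± 3.80 and 16.1 ± 7.50 TPM (SD, n = 3 each), a log2 change of -1.36, or -0.91 without LL-37 replicate 3, where the LL-37 mean was 48.2% below that of Ctrl.

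TNC encodes tenascin-C, a hexameric matricellular glycoprotein that modulates adhesion to fibronectin. It lies on the minus strand of chromosome 9 (115019578 to 115118257). Its level was 244, 223 and 247 TPM in Ctrl and 246, 242 and 69.8 TPM with LL-37. The first and second LL-37 values lay within the Ctrl range, and only LL-37 replicate 3 was low. The log2 change of -0.56 with all libraries was 0.04 without LL-37 replicate 3. The ratio of FN1 to TNC, 0.158 to 0.177 in the Ctrl libraries, was 0.0832, 0.0842 and 0.107 in LL-37 replicates 1, 2 and 3, so that relative to tenascin-C transcripts fibronectin transcripts were fewer in all 3.

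The stretches of 250 bases before the RefSeq start sites of FN1 (chr2:215436069-215436318, GRCh38.p14, minus strand) and TNC (chr9:115118158-115118407, minus strand) are shown because these 2 adhesion genes, both with long transcripts, differed from each other in LL-37 replicates 1 and 2, FN1 below Ctrl and TNC within its range. Capitals mark matches on either strand to the TATA box TATAA, the box named CCAAT, the GC box GGGCGG, the cAMP response element TGACGTCA and the AP-1 site TGANTCA.
FN1: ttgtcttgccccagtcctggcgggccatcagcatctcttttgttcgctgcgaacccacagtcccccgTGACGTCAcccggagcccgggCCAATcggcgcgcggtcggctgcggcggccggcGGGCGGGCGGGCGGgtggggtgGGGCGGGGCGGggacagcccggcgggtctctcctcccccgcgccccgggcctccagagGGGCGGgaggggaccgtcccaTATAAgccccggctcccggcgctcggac
TNC: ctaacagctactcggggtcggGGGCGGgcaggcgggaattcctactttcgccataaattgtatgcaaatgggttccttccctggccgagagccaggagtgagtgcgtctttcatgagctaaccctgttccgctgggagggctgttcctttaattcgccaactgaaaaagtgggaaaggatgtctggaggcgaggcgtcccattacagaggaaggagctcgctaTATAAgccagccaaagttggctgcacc
Both hold TATAA, starting 28 and 27 bases before the start site of FN1 and TNC. The run of FN1 also holds TGACGTCA, starting 183 bases before the start, 1 CCAAT and 6 GGGCGG, some of which adjoin or share letters, whereas that of TNC holds 1 GGGCGG and none of the other 3 motifs. Among 35116 RefSeq windows of 300 bases, from 250 before to 50 after a start, TATAA was in 20.4%, CCAAT in 34.6%, GGGCGG in 45.0%, TGACGTCA in 1.85% and TGANTCA in 7.71%. A match is a run of letters, not a measured binding site. Windows were found for 9 of the 10 genes, all but A2M, and FN1 was the only one of the 9 with TGACGTCA. The windows of SPARC and SPP1 held none of the 5 motifs, and those of LAMB1, LAMC1 and TIMP1 held GGGCGG alone.

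**Figure D1:**
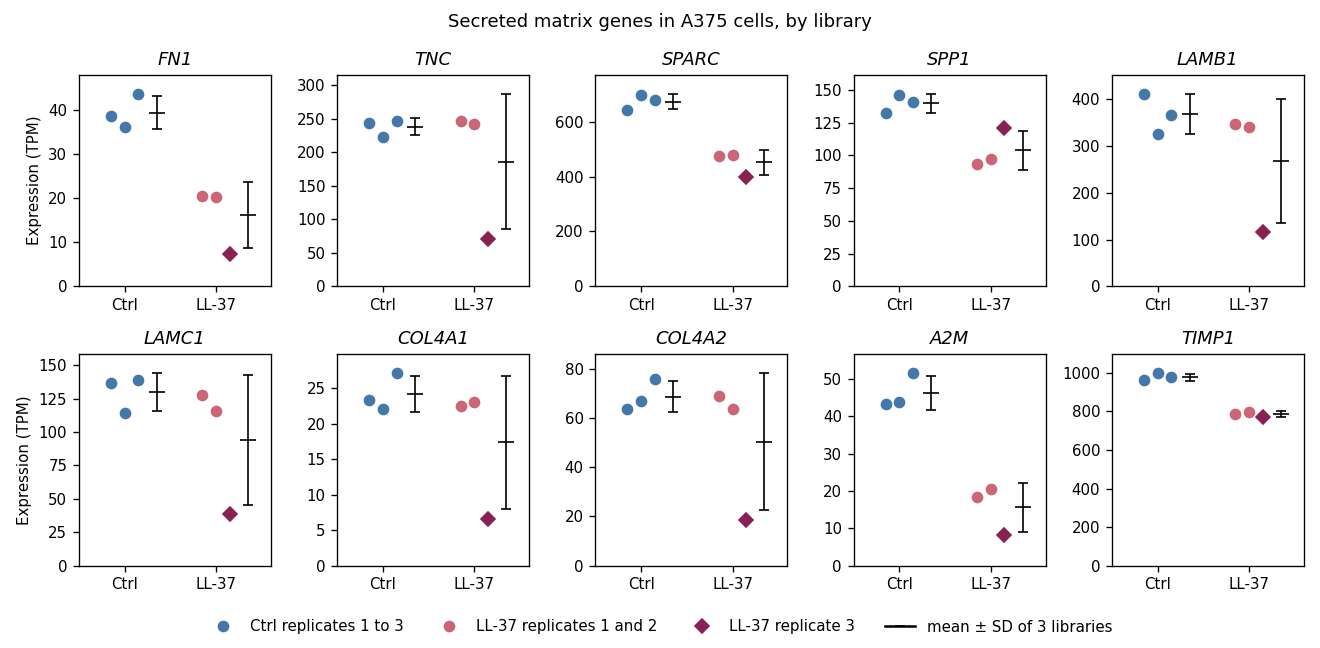
Expression of the 10 matrix genes in TPM (vertical axes, each from 0) in 3 Ctrl and 3 LL-37 libraries. Points are libraries, diamonds are LL-37 replicate 3, and bars are the mean ± SD of 3 libraries. For FN1, A2M, SPARC, SPP1 and TIMP1 the groups do not overlap in TPM, and for the other 5 genes only LL-37 replicate 3 lies below the Ctrl range.

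SPARC, or osteonectin, is a collagen-binding matricellular glycoprotein. Its gene is on the minus strand of chromosome 5 (151661096 to 151687165). SPARC was 642, 696 and 680.4 TPM in Ctrl and 476, 478 and 399.6 TPM with LL-37. All 3 LL-37 libraries were below all 3 Ctrl libraries, and replicates 1 and 2 were nearly equal. The group means were 673 ± 28.3 and 451 ± 44.7 TPM (SD, n = 3 each), and the log2 change was -0.58, or -0.49 when LL-37 replicate 3 was left out. In that case the LL-37 mean was 29.1% below Ctrl. Under median-of-ratios scaling, LL-37 replicate 3 lay within the Ctrl range and the log2 change was -0.33.

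SPP1 encodes osteopontin, a phosphorylated secreted ligand of integrins and CD44. Its gene is on the plus strand of chromosome 4 (87975650 to 87983426). SPP1 was 132, 146 and 141 TPM in Ctrl and 93.2, 97.2 and 121 TPM with LL-37. It was the only one of the 10 for which LL-37 replicate 3 lay above the other LL-37 libraries. Its log2 change was accordingly larger without that library, -0.54 against -0.43, and the LL-37 mean was then 31.7% below Ctrl. Under median-of-ratios scaling, LL-37 replicate 3 lay above the Ctrl range and the log2 change was -0.18.

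The laminin chains beta 1 and gamma 1, encoded by LAMB1 and LAMC1, assemble with an alpha chain into the cross-shaped trimers of the basement membrane. LAMB1 (chromosome 7, 107923799 to 108003255, minus strand) was 411, 326 and 367 TPM in Ctrl and 347, 340.2 and 115 TPM with LL-37. LAMC1 (chromosome 1, 183023460 to 183145592, plus strand) was 137, 114 and 139 TPM in Ctrl and 128, 116 and 38.6 TPM with LL-37. For both genes the first and second LL-37 libraries lay inside the range of Ctrl, and their log2 changes of -0.62 and -0.63 were each -0.09 without LL-37 replicate 3. The chains kept their proportion: the ratio of LAMB1 to LAMC1 was 2.65 to 2.99 in Ctrl and 2.72, 2.92 and 2.99 in LL-37 replicates 1, 2 and 3.

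COL4A1 and COL4A2 encode the chains of the common type IV collagen trimer, and are arranged head to head on chromosome 13 (COL4A1, 110148963 to 110307233, minus strand; COL4A2, 110305812 to 110513209, plus strand). COL4A1 was 23.4, 22.1 and 27.1 TPM in Ctrl and 22.5, 23.1 and 6.52 TPM with LL-37. COL4A2 was 63.5, 66.7 and 75.7 TPM in Ctrl and 69.0, 63.5 and 18.4 TPM with LL-37. In both genes LL-37 replicates 1 and 2 lay within the Ctrl range, and replicate 3 was 3.71-fold and 3.74-fold below the Ctrl mean of COL4A1 and COL4A2. Log2 changes of -0.63 and -0.65 were -0.08 and -0.05 without LL-37 replicate 3. The ratio of COL4A2 to COL4A1 was 2.71 to 3.01 in the Ctrl libraries and 3.06, 2.75 and 2.81 in LL-37 replicates 1, 2 and 3, so the pair held its proportion even in the library where both were low.

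The bases between the RefSeq start sites of the pair (chr13:110307158-110307283, GRCh38.p14, plus strand, read towards COL4A2) are shown because the 2 genes lie head to head and kept a similar proportion in every library. A steady proportion was not particular to this pair, as LAMB1 and LAMC1, on different chromosomes, kept theirs too. Capitals mark the same 5 motifs.
COL4A1 and COL4A2: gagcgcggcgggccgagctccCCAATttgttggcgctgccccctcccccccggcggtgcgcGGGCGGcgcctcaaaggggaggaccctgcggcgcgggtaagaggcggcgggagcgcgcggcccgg
The start sites are 127 bases apart, at 110307157 and 110307284, and the stretch between them is 80.2% G and C. It holds 1 CCAAT, the nearest base of which lies 22 bases upstream of the COL4A1 start. It also holds 1 GGGCGG, which ends 60 bases before the COL4A2 start, and no TATAA. A window that overlaps one on the other strand was found for 16.3% of RefSeq windows. In GENCODE 29 the 2 genes share 1422 bases on opposite strands. LAMB1 likewise shares 7932 bases with DLD, at 35.2 to 58.7 TPM. The library kit marks strand, but whether the authors' quantification used it is not given in the sources used here, so some reads of these pairs may not be told apart. The other annotated genes that overlap members, such as A2M-AS1, SYN1 at TIMP1, CLMAT3 at SPARC and DEC1 at TNC, were under 1 TPM in every library.

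A2M encodes alpha-2-macroglobulin, a secreted trap for proteases of many classes. Its gene is on the minus strand of chromosome 12 (9067664 to 9116229). A2M was 43.4, 43.9 and 51.5 TPM in Ctrl and 18.3, 20.5 and 8.10 TPM with LL-37. The lowest Ctrl library held more than 2 times the highest LL-37 library. The means were 46.2 ± 4.53 and 15.7 ± 6.64 TPM (SD, n = 3 each), and the log2 change was -1.60, or -1.21 without LL-37 replicate 3, the furthest from 0 of the 10 in both cases. The ratio of FN1 to A2M was 0.826 to 0.889 in Ctrl and 0.919 to 1.12 with LL-37.

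TIMP1 encodes a secreted inhibitor of matrix metalloproteinases, and was the most abundant of the 10. Its gene is on the plus strand of the X chromosome (47582313 to 47586789). TIMP1 was 960.4, 997 and 976 TPM in Ctrl and 787, 799 and 771 TPM with LL-37. The LL-37 libraries, replicate 3 included, sat close together and below every Ctrl library in TPM. Under median-of-ratios scaling, which sets the median ratio between libraries to be equal, LL-37 replicate 3 was instead above Ctrl, at 1179 against 861 to 950.4, and the log2 change was -0.06. In TPM the Ctrl mean was 978 ± 18.2 TPM (SD, n = 3) and the LL-37 mean 786 TPM, with its 3 libraries between 771 and 799 TPM, and the log2 change was -0.32, or -0.30 without LL-37 replicate 3.

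By mean Ctrl level, the order was TIMP1 (978 ± 18.2 TPM), SPARC (673 ± 28.3), LAMB1 (368 ± 42.5), TNC (238 ± 13.3), SPP1 (139 ± 7.07), LAMC1 (130.0, from 114 to 139), COL4A2 (68.6 ± 6.36), A2M (46.2 ± 4.53), FN1 (39.5 ± 3.80) and COL4A1 (24.2 ± 2.59; SD, n = 3 each). The Ctrl values of SPP1 and LAMC1 overlapped, as did those of A2M and FN1, and those of the other neighbours did not. The summed level of the 10 genes was 2670.4 to 2748 TPM in Ctrl, and 2207, 2201 and 1555 TPM in LL-37 replicates 1, 2 and 3.

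All 10 log2 changes were below 0 with all libraries and 9 were below 0 without LL-37 replicate 3, with medians of -0.62 and -0.20 against -0.20 and 0.00 over all tested genes. The groups did not overlap for 5 members, all lower with LL-37, with or without LL-37 replicate 3. Over all tested genes a lower LL-37 group without overlap was found for 10.3% with all libraries and 12.9% without that library. Across all genes, 0% passed an adjusted p under 0.05 (limma, 0 of 14399, of which 363 or 2.52% had an unadjusted p under 0.05). Without LL-37 replicate 3, 17 passed (0.118%), 10 of them lower. The members were chosen on this contrast, so these shares are given as background and no call is given for a member.

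**Figure D2:**
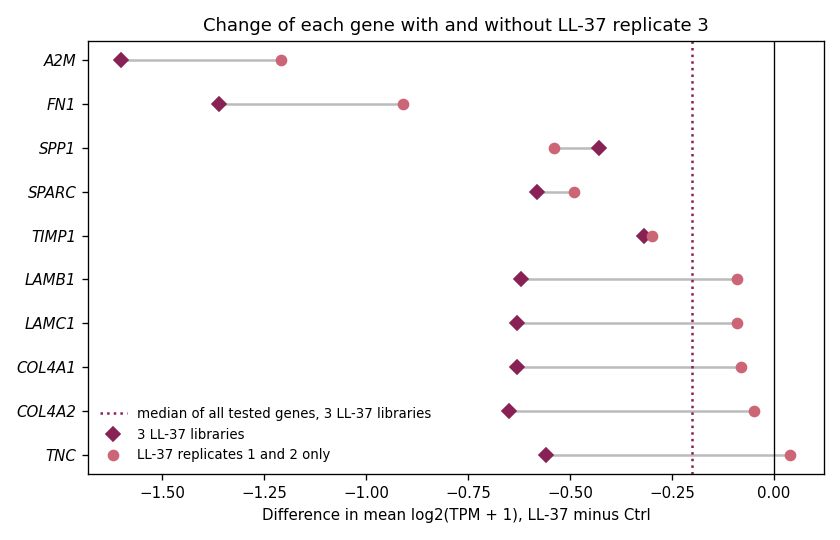
Difference in mean log2(TPM + 1), LL-37 minus Ctrl (horizontal axis), for each of the 10 genes with all 3 LL-37 libraries (diamonds) and with replicates 1 and 2 only (circles). The dotted line is the median of all tested genes with 3 libraries (-0.20). TNC, COL4A1, COL4A2, LAMB1 and LAMC1 move to between -0.09 and 0.04 without LL-37 replicate 3, while FN1 and A2M remain at -0.91 and -1.21.

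The members that were low only in LL-37 replicate 3 all have long transcripts, although FN1 and A2M do too. The longest annotated transcripts of TNC, LAMB1, LAMC1, COL4A1 and COL4A2 were 5766 to 7889 bases and those of A2M and FN1 4844 and 9171 bases, and those of TIMP1, SPP1 and SPARC were 1095, 1664 and 3701 bases. In log2(TPM + 1), the median difference of LL-37 replicate 3 from the mean of the other LL-37 libraries was -0.13 over 2103 tested genes of 1000 to 2000 bases and -1.06 over 1317 genes of 6000 to 8000 bases. The differences were -0.04 for TIMP1, 0.34 for SPP1 and -0.25 for SPARC. They were -1.79 for TNC, -1.63 for LAMC1, -1.66 for COL4A1 and -1.80 for COL4A2, each below the lower quartile of their length class (-1.41). For LAMB1, at -1.57, the lower quartile of the class of 4000 to 6000 bases was -1.20. A2M, at -1.17, lay between the median (-0.86) and the lower quartile of that class, and FN1, at -1.34, between the median (-1.14) and lower quartile (-1.49) of genes over 8000 bases. No such gradient with length was seen between LL-37 replicates 1 and 2 and Ctrl, where the class medians were -0.01 to 0.00. How far transcript length enters the low values of LL-37 replicate 3 was not tested. With each library's length trend removed, the 3-library log2 changes were -0.20 for TNC, -0.30 for LAMB1, -0.27 for LAMC1, -0.29 for COL4A1 and -0.31 for COL4A2, and were -0.99 for FN1 and -1.31 for A2M.

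**Figure D3:**
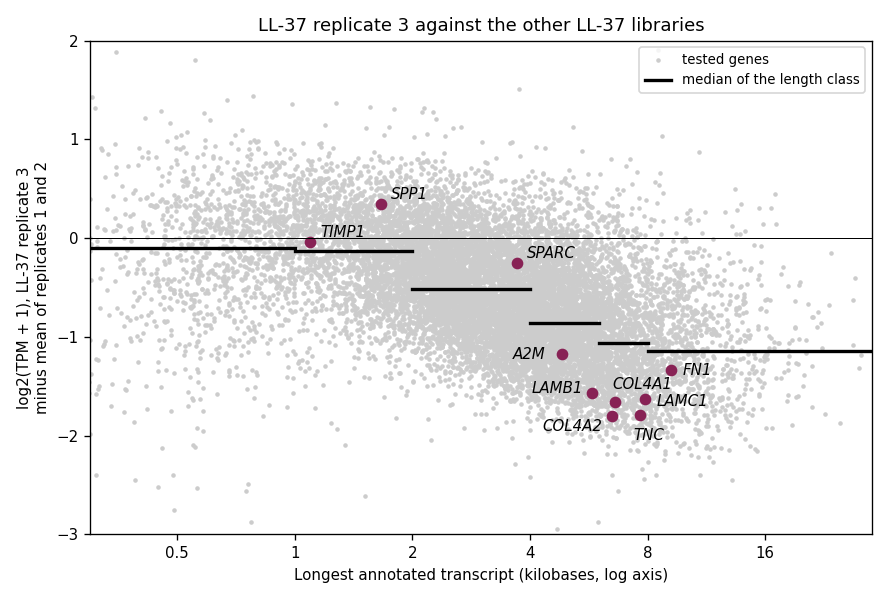
Log2(TPM + 1) in LL-37 replicate 3 minus the mean of LL-37 replicates 1 and 2 (vertical axis) against the longest annotated transcript in kilobases (horizontal log axis), for tested genes (grey) and the 10 matrix genes (dark points). Black lines are medians of length classes, from -0.10 for the shortest to -1.14 for the longest, and 67 of 13887 points lie outside the axes. The 5 laminin, collagen and tenascin genes lie at -1.57 to -1.80, and TIMP1, SPP1 and SPARC at -0.25 to 0.34.

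Scaling bears on the 3 shorter members in that library. Under median-of-ratios scaling, which divides LL-37 replicate 3 by 0.654 and moves the median change of all genes from -0.20 to 0.01, LL-37 replicate 3 reached 611 for SPARC, within the Ctrl range of 578 to 664. It reached 185 for SPP1, above the Ctrl range of 119 to 139, and was above Ctrl for TIMP1 too. LL-37 replicates 1 and 2 stayed below Ctrl, at 425 and 448 for SPARC, 83.3 and 91.0 for SPP1 and 703 and 748 for TIMP1. On the same scale FN1 was 18.3, 19.1 and 11.4 with LL-37 against 34.5 to 38.5 in Ctrl, and A2M was 16.4, 19.2 and 12.4 against 39.1 to 45.4.

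Other genes of the matrix were taken from 9 lists of 190 genes that leave out the 10 members, and 130 were tested. None passed over all genes, with all libraries (limma, smallest adjusted p = 0.739) or without LL-37 replicate 3 (smallest adjusted p = 0.0674). With all libraries 13 had an unadjusted p under 0.05, all lower, which is 10.0% of the 130 against 2.52% of all tested genes. Without LL-37 replicate 3 there were 31, 25 lower and 6 higher, which is 23.8% against 9.01%. The 130 had a median log2 change of -0.41 over all libraries, and of -0.02 when LL-37 replicate 3 was left out, beside -0.20 and 0.00 for all tested genes. Without that library the groups did not overlap for 40 list genes that were lower (30.8%, against 12.9%) and 18 that were higher (13.8%, against 12.3%). The lists were chosen with earlier results of these data known, so these shares are descriptions. They are no test of matrix genes as a class.

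Among 15 measured matricellular and elastic-fibre genes, 4 had an unadjusted p under 0.05 without LL-37 replicate 3, all lower. Of all tested genes 9.01% were under that threshold. The median log2 change of the 15 was -0.12. TGFBI, a secreted integrin ligand, was 81.6, 97.4 and 105 TPM in Ctrl and 57.0, 68.3 and 38.7 TPM with LL-37, without overlap. Its log2 change was -0.81 ± 0.22 (SE), or -0.59 without LL-37 replicate 3. CCN3, a matricellular CCN protein, was 40.7, 39.7 and 45.7 TPM in Ctrl and 33.7, 38.7 and 26.2 TPM with LL-37, with a log2 change of -0.36, or -0.21 without that library. Under median-of-ratios scaling, LL-37 replicate 3 lay within the Ctrl range for CCN3.

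Of the 11 other basement membrane genes, 1 had an unadjusted p under 0.05 without LL-37 replicate 3, and it was lower. For these 11 genes that is close to the share of 9.01% over all tested genes. The most abundant, LAMB2 and LAMA4, were far below Ctrl in LL-37 replicate 3 alone: LAMB2, a beta chain, was 268, 257 and 270.5 TPM in Ctrl and 276, 249.9 and 109.5 TPM with LL-37. LAMA4, an alpha chain, was 255, 211 and 241 TPM in Ctrl and 255, 238 and 81.8 TPM with LL-37. The log2 changes of LAMB2 and LAMA4 were -0.43 and -0.46, and -0.01 and 0.07 without LL-37 replicate 3. At an unadjusted p under 0.05 without that library, 2 of 10 other collagen genes were higher and 1 lower, against 9.01% of all tested genes. COL9A3, a chain of a fibril-associated collagen, averaged 468 ± 28.2 TPM in Ctrl (n = 3) and 471 TPM in LL-37 replicates 1 and 2, with 184 TPM in replicate 3. COL6A1, a chain of the beaded-filament collagen, averaged 119 ± 6.99 TPM in Ctrl (n = 3) and 126 TPM in those 2 libraries, with 46.7 TPM in replicate 3. The 3-library log2 changes of COL9A3 and COL6A1 were -0.44 and -0.38, against 0.01 and 0.09 without that library. Of 9 proteoglycan genes, 3 were higher and 3 lower at that threshold, against the same 9.01%. CSPG4, a melanoma-associated surface proteoglycan, was 162, 151 and 172 TPM in Ctrl and 241, 214 and 56.1 TPM with LL-37, so that the first and second LL-37 libraries lay above Ctrl and the third below. HAPLN1, a hyaluronan link protein, was 65.7 ± 6.73 and 72.9 ± 9.73 TPM (SD, n = 3 each), and its log2 change was 0.14, or 0.24 without LL-37 replicate 3. That of CSPG4 was -0.18, or 0.49 without it.

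For 22 matrix receptors the median log2 change without LL-37 replicate 3 was -0.06, with 2 lower and 1 higher at an unadjusted p under 0.05. Over all tested genes the share at that threshold was 9.01%. CD44, a receptor for hyaluronan and osteopontin, was 444, 405 and 446 TPM in Ctrl and 416, 397 and 226 TPM with LL-37. ITGA3, a laminin-binding integrin chain, was 195, 189 and 202 TPM in Ctrl and 183, 176 and 66.0 TPM with LL-37. The log2 changes of CD44 and ITGA3 were -0.37 and -0.60, and -0.08 and -0.12 without LL-37 replicate 3. Named after their values were seen, for their known ligands, are the fibronectin receptor chains ITGA5, ITGB1 and ITGA4, and LRP1, the receptor that clears alpha-2-macroglobulin complexes. ITGA5 was 65.2, 61.5 and 67.6 TPM in Ctrl and 77.6, 68.3 and 31.9 TPM with LL-37. ITGB1, its partner chain, was 163, 146 and 156 TPM in Ctrl and 141, 136 and 85.8 TPM with LL-37. ITGA4 was 12.1, 11.1 and 12.8 TPM in Ctrl and 8.55, 8.58 and 4.98 TPM with LL-37. LRP1 was 30.6, 28.9 and 34.9 TPM in Ctrl and 30.0, 31.2 and 8.52 TPM with LL-37. In LL-37 replicates 1 and 2, LRP1 lay within the Ctrl range and these 3 fibronectin receptor chains differed among themselves, ITGA5 above the Ctrl range and ITGB1 and ITGA4 below it.

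Among 21 matrix proteases the median log2 change without LL-37 replicate 3 was -0.11, and 4 had an unadjusted p under 0.05, all lower. The share of all tested genes at that threshold was 9.01%. CTSB, a lysosomal and secreted cathepsin, was 186 ± 12.8 TPM in Ctrl and 140.4 ± 29.3 TPM with LL-37 (SD, n = 3 each), without overlap in TPM. CTSL was 108 ± 0.766 and 105 ± 7.21 TPM (SD, n = 3 each). Their log2 changes were -0.42 and -0.05, and -0.24 and 0.01 without LL-37 replicate 3. Among 12 other protease inhibitors the median was -0.09, and 4 had an unadjusted p under 0.05, all lower, against the same 9.01%. SERPINA3, an inhibitor of chymotrypsin-like proteases, was 751, 824 and 799 TPM in Ctrl and 546, 614 and 551 TPM with LL-37. In TPM it was below Ctrl by a similar amount in all 3 libraries, with log2 changes of -0.47 ± 0.09 (SE) and, without LL-37 replicate 3, -0.45. Median-of-ratios scaling divides LL-37 replicate 3 by 0.654 and each of the other libraries by 1.05 to 1.13. On that scale LL-37 replicate 3 was not below Ctrl for SERPINA3 and lay within the Ctrl range for CTSB. SERPINE2 was 4622 ± 204 and 3580.5 ± 1034 TPM (SD, n = 3 each), also without overlap, and its log2 change was -0.41, or -0.15 without LL-37 replicate 3. The smallest adjusted p without LL-37 replicate 3 (limma, 0.0674) belonged to SERPINF1, the gene of the secreted serpin PEDF, named after its values were seen. SERPINF1 was 40.3, 45.1 and 43.2 TPM in Ctrl and 26.6, 29.4 and 20.5 TPM with LL-37, with a log2 change of -0.74, or -0.60 when that library was left out. TIMP2 and TIMP3, named in the same way as the other abundant TIMP genes, were 92.0, 86.6 and 99.3 TPM and 232, 203 and 233 TPM in Ctrl. With LL-37 they were 93.2, 86.5 and 36.4 TPM and 238, 221 and 94.5 TPM, far below Ctrl in LL-37 replicate 3 and near Ctrl in the other LL-37 libraries.

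Of 15 genes of matrix maturation and crosslinking, 6 had an unadjusted p under 0.05 without LL-37 replicate 3, all lower. The median log2 change of the 15 was -0.01, and 9.01% of all tested genes were under that threshold. The 6 were PLOD1, PLOD2, P4HA1, P4HA2, LOXL2 and PCOLCE, named after their values were seen. Their log2 changes without LL-37 replicate 3 were -0.27, -0.39, -0.36, -0.41, -0.33 and -0.43, in that order. P4HB, the beta subunit of prolyl hydroxylase, was 608 ± 31.6 TPM in Ctrl (n = 3) and averaged 604 TPM in LL-37 replicates 1 and 2, with 364 TPM in replicate 3. CRTAP, a prolyl 3-hydroxylase partner, was 312 ± 37.6 TPM in Ctrl (n = 3) and averaged 322 TPM in those 2 libraries, with 227 TPM in replicate 3. The 3-library log2 changes of P4HB and CRTAP were -0.25 and -0.11, against -0.01 and 0.05 without that library. Among 15 genes of TGF-beta ligands, receptors and SMADs, a pathway known to induce matrix genes, none had an unadjusted p under 0.05 with or without LL-37 replicate 3, and none passed adjusted (limma). Over all tested genes the unadjusted shares were 2.52% with and 9.01% without that library, so few would be found among 15 in any case. The part of this pathway was not tested. LTBP3 and LTBP4, which store latent TGF-beta in the matrix, were 248 ± 19.4 and 94.1 ± 4.60 TPM in Ctrl (n = 3) and averaged 232 and 102 TPM in LL-37 replicates 1 and 2, with 84.0 and 36.7 TPM in replicate 3. Their log2 changes were -0.58 and -0.36, and -0.10 and 0.12 without that library.

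**Figure D4:**
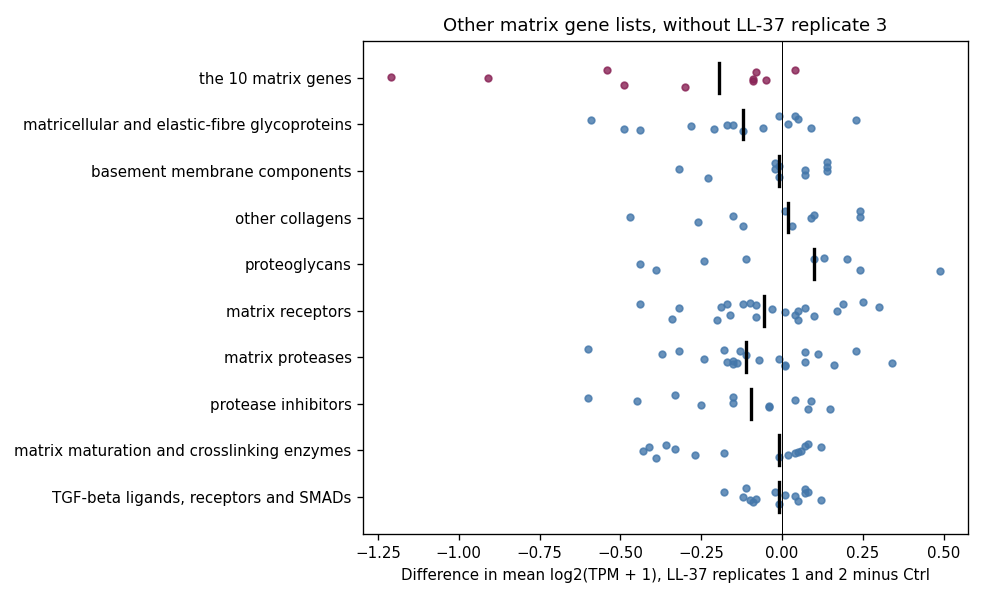
Difference in mean log2(TPM + 1), LL-37 replicates 1 and 2 minus Ctrl (horizontal axis), for the 10 matrix genes and the tested genes of 9 other matrix lists. Each point is a gene, black bars are list medians, and vertical scatter is for legibility. FN1 and A2M, at -0.91 and -1.21, lie beyond every gene of the other lists, and the list medians lie between -0.12 and 0.10. The 10 genes were chosen with these differences known, so their place beside the lists is a description and not a test.

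The genes whose log2(TPM + 1) over the 6 libraries correlated most with that of FN1, among 9938 named genes with a mean of at least 5 TPM, were ITGA4 (r = 0.998), SOCS3 (0.998) and SEMA3C (0.996). For A2M they were POLI (0.995), LIPA (0.995) and NREP (0.993). The 6 libraries share the difference between the groups and LL-37 replicate 3 across all these genes. POLI was 13.1, 12.7 and 13.0 TPM in Ctrl and 10.3, 10.5 and 8.33 TPM with LL-37.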

How the data were processed

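Per the labels' protocols, poly(A) RNA of A375 cells, isolated on columns, was sequenced from strand-marking libraries. The authors deposited TPM per gene, 1 column per library, and their processing notes name the build GRCh38. How reads were aligned and quantified is not given in the sources used here. Such values keep no depth, and a loss of long transcripts or a change in abundant genes moves the values of other genes.

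Columns were assigned by their titles (Ctrl and LL-37, n = 3 each). Of 63140 identifiers, 62541 were named from a gene name table. Genes that reached 1 TPM in 3 or more libraries were tested as log2(TPM + 1) with limma 3.58.1 in R 4.3.3 (moderated, intensity trend, two-sided), at a Benjamini-Hochberg adjusted p under 0.05 over all genes, and the script was tested on simulated data. p-values measure the spread between these libraries. The members and lists were chosen with earlier results of these data known. Genes named were the members, list genes past the threshold, the 2 most abundant of each list and the 3 most correlated with FN1 and A2M. ITGA5, ITGB1, LRP1, SERPINF1, TIMP2 and TIMP3, and ITGA4 as a receptor, were named after their values were seen. So were PLOD1, PLOD2, P4HA1, P4HA2, LOXL2 and PCOLCE. Lengths (longest transcript, 96.4% of tested genes) and positions came from GENCODE 29, and promoter windows from RefSeq (GRCh38.p14). Alternatives were 2 pseudocounts, 2 filters, 2 scalings, TPM without mitochondrially encoded genes, length trend removal, a replicate block, no intensity trend and each library left out. The mouse libraries were not used.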

Additional observations from a re-analysis of the deposited data

How the results depend on the processing

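Of the alternatives, 15 were run for each log2 change and 17 for each count. FN1, A2M, SPARC, SPP1, TIMP1, LAMB1, LAMC1, COL4A1 and COL4A2 had a log2 change below 0 in every one, and TNC in all but the 2 without LL-37 replicate 3 (0.04 in both). Some of these changes were small. Those of LAMB1, LAMC1, COL4A1 and COL4A2 were -0.09 to -0.05 without LL-37 replicate 3. With median-of-ratios scaling those of SPARC, SPP1 and TIMP1 were -0.33, -0.18 and -0.06. With length trends removed those of SPARC and TIMP1 were -0.35 and -0.28. The members' median log2 change was -0.62, and it ranged from -0.89 to -0.20 over libraries left out. It was -0.38 with median-of-ratios scaling and -0.30 with length trends removed. The count of 0 genes past the threshold became 0 to 17 when each library was left out, 17 only without LL-37 replicate 3, and 9 when length trends were removed as well. The count over the matrix lists was 0 in every setting. Whether shared numbers pair Ctrl and LL-37 replicates could not be decided. Deviations of same-numbered libraries from their group means correlated at 0.09, -0.20 and -0.17, and those of differently numbered libraries at -0.21 to 0.25. LL-37 replicate 3 weighs heavily on the LL-37 mean, so this check cannot exclude a pairing. With a replicate block 0 genes passed, 0 of them in the lists. Precision is limited by 3 libraries per group and by the unknown depth.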
